A study of Trametes coccinea with 9 samples.

Results

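In *P. coccineus* CIRM-BRFM 310, 82 of 11202 genes with deposited normalized counts were at least 16 times higher on both pine and aspen than on maltose while differing less than 2-fold between the woods. They were chosen on these very values. The mean normalized count of the 3 libraries of a condition, plus 10, was set against that of another condition, and a gene was kept when both ratios to maltose were at least 16 and the ratio of pine to aspen lay above 0.5 and under 2. In all, 100 genes (0.893% of the 11202) met these limits, and 18 of them, which belong to a list of 19 genes that the rule leaves out, were set aside. All fold values below are therefore a description of the choice and carry no test.

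The study asked how this white-rot fungus answers to softwood and hardwood. Poly A RNA was sequenced from 9 independent liquid cultures of 1 monokaryotic strain, harvested after 3 days at 30 °C, with 3 cultures on maltose alone at 20 g/l, 3 on pine and 3 on aspen. The wood media held 15 g/l of wood and, by the methods, 2.5 g/l of maltose, so growth with wood and growth with less maltose cannot be told apart. The pine was ground with its bark and sifted whereas the aspen was Wiley-milled, so the wood species and its preparation cannot be told apart either. Library values below are normalized counts, given in the order of replicates 1, 2 and 3 of a condition, and "mean" is that of these 3 cultures.

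White-rot fungi secrete enzyme mixtures that take apart cellulose, hemicelluloses, pectin and lignin. Glycoside hydrolases (GH) and carbohydrate esterases (CE) are grouped into sequence families of the CAZy database, and some carry a family 1 carbohydrate-binding module (CBM1), a small domain that holds the enzyme on cellulose. In fungi many of these genes are kept low while simple sugars are plentiful and are turned up by fragments released from plant cell walls, while cytochrome P450s, haem enzymes that insert oxygen into small molecules, take part in the breakdown of aromatic compounds inside the cell.

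Total counts were 28399534 to 38654866 per library, and the constants that turn raw into normalized counts ran from 0.990 to 1.59. The median ratio over all genes was close to 1 on each wood (log2 −0.00187 on pine and −0.01 on aspen). The scaling of the deposited counts assumes that most genes do not change between conditions, so a median near 1 follows from it. That median cannot show whether the ratios of the 82 genes need a shift, and none was made. Of all genes, 1.86% reached 16-fold on pine, 1.95% on aspen and 1.26% on both. Of the 141 genes that did so on both, a pine to aspen ratio of 0.5 or less set aside 25 and a ratio of 2 or more set aside 16, among them the 1 listed gene that did not meet the limits, the GH12 gene 1358049.

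The 82 genes ran from 16.3-fold to 210-fold on pine (median 30.5) and from 16.8-fold to 268-fold on aspen (median 32.4). Their mean normalized count on maltose ranged from 5.003 to 6843 with a median of 87.8, and the median mean was 3617 on pine and 4064 on aspen. In every one of the 82, all 6 wood libraries lay above all 3 maltose libraries, a pattern seen in 23.6% of the 11202 genes. The rule did not ask for that separation, but a 16-fold ratio of means leaves little room for overlap. The distance between the lowest wood library and the highest maltose library, each plus 10, had a median of 14.6-fold. It was at least 8-fold in 70 genes, at least 4-fold in 78 and at least 2-fold in 81. The plot of counts by gene and library shows the gap between conditions for each gene.

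**Figure D1:**
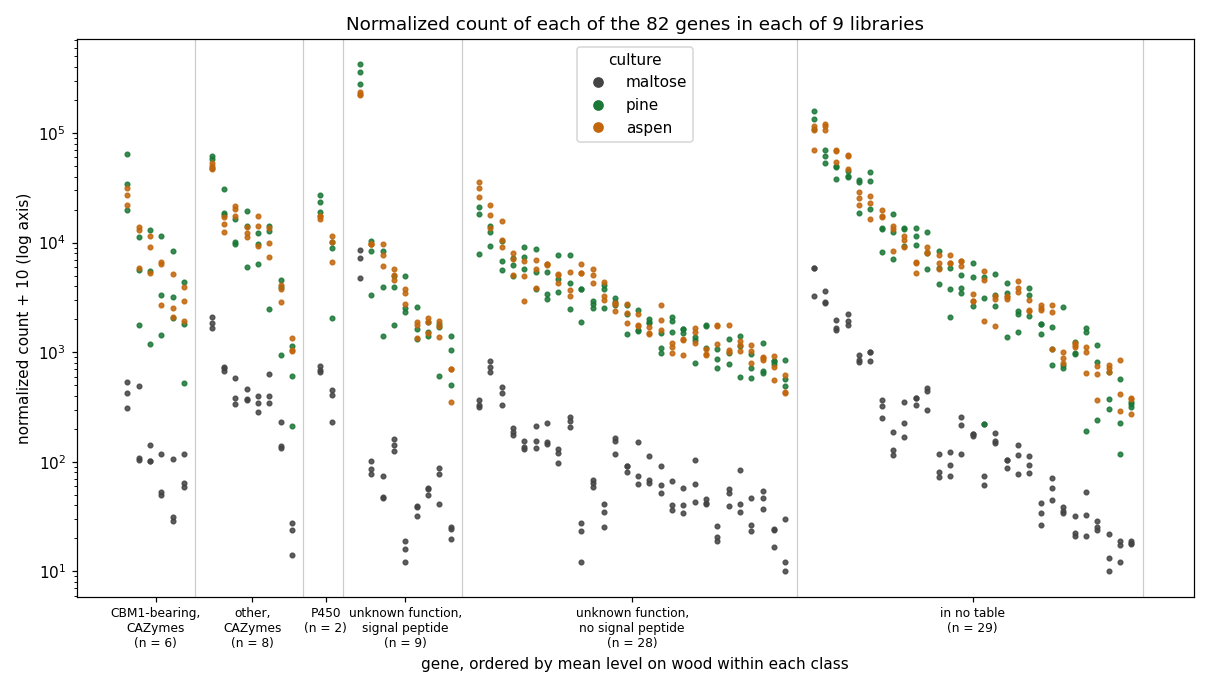
Normalized count plus 10 (log axis) of each of the 82 genes, 1 column of points per gene, in the 3 maltose (grey), 3 pine (green) and 3 aspen (orange) libraries, grouped by annotation class. Every wood point lies above the maltose points of its gene, and the pine points of the CBM1-bearing genes are spread more widely than their aspen points.

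By the annotation tables of the study, 14 of the 82 encode carbohydrate-active enzymes (CAZymes), 2 encode P450s, 9 encode proteins of unknown function with a predicted signal peptide (the leader that sends a protein out of the cell), 28 encode proteins of unknown function without one, and 29 are in none of these tables. CAZymes made up 17.1% of the set against 2.48% of all genes, and proteins of unknown function 45.1% against 18.9%. The genes in no table made up 35.4% of the set against 78.1% of all genes. The rule left out mainly CAZymes, so the share of CAZymes counts those that remained. The tables of CAZymes, P450s and proteins of unknown function list transcripts that the study identified in these same transcriptomes. The shares by class are therefore not independent of the data that chose the members.

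**Figure D2:**
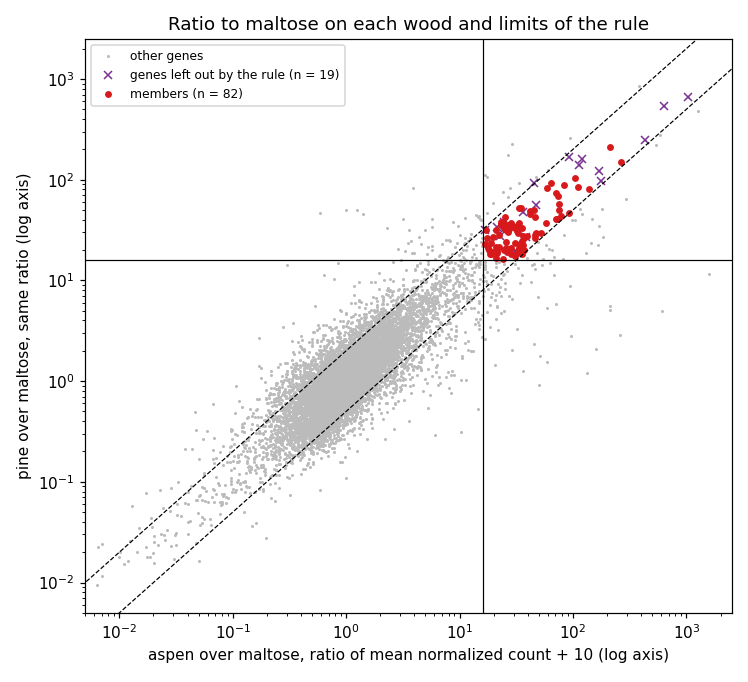
Ratio of mean normalized count plus 10 on pine (y axis) and aspen (x axis) over maltose for 11202 genes, both axes logarithmic, with the 82 members in red and the 19 genes the rule leaves out as crosses. Solid lines mark 16-fold and dashed lines a pine to aspen ratio of 0.5 and 2; the members fill the corner between these lines from 16.3-fold to 268-fold.

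The members that act on cellulose and its xyloglucan coat include 1 gene each of GH74, GH5_5 and GH131, all with a CBM1. Transcript 1365564 encodes the only GH74 protein of the tables, a family of xyloglucanases, and was the most abundant CBM1-bearing member. Its normalized counts were 411, 299 and 524 on maltose, 34444, 63893 and 19827 on pine and 27204, 21883 and 31702 on aspen. The lowest wood library lay 37.2-fold above the highest maltose library, the woods overlapped, and the means gave 93.5-fold on pine and 63.9-fold on aspen. For the GH5_5 gene 1375024, from a family of endoglucanases that cut cellulose chains internally, the counts were 40.0, 42.8 and 109 on maltose, 3316, 11464 and 1432 on pine and 6702, 2687 and 6375 on aspen. Pine replicate 2 was the highest library and the woods overlapped, with 73.3-fold on pine and 71.2-fold on aspen. Without pine replicate 2 the pine ratio of 1375024 was 32.3-fold and its pine to aspen ratio 0.453, outside the window of the set.

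Gene 1467772 belongs to the β-glucanase family GH131. It had 97.9, 92.8 and 484 on maltose, 5662, 11133 and 1775 on pine and 13806, 5858 and 12977 on aspen. Maltose replicate 3 stood far above the other maltose libraries, and every wood library still lay above it. The means of 1467772 gave 26.4-fold on pine and 46.4-fold on aspen. Leaving out maltose replicate 3 raised these ratios to 58.9-fold and 103-fold, and leaving out pine replicate 2 lowered the pine ratio to 15.9-fold, under the limit of the set. It also left the set without aspen replicate 2, at a pine to aspen ratio of 0.463.

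Xylan, a major hemicellulose of hardwood and also present in softwood, is the substrate of a pair of GH10 endo-xylanases, of 1 CE1 esterase and of 1 CE16 acetyl esterase among the members. The GH10 gene 1435885 had 91.2, 90.7 and 133 on maltose, 5527, 13013 and 1167 on pine and 9130, 5288 and 11472 on aspen. Its pine libraries spread 11.1-fold and enclosed all aspen libraries, and the means gave 57.3-fold on pine and 75.2-fold on aspen. The other GH10 gene, 1437837, had 48.9, 54.2 and 109 on maltose, 1781, 4395 and 517 on pine and 2940, 1912 and 3921 on aspen, and its order of libraries was the same as that of 1435885 within pine and within aspen. Its means gave 27.8-fold and 36.4-fold. Without pine replicate 2 both GH10 genes left the set, with a pine ratio of 29.2-fold and a pine to aspen ratio of 0.389 for 1435885, and 14.4-fold and 0.395 for 1437837.

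In the CBM1-bearing CE1 gene 1377173, from a family that removes acetyl or feruloyl groups from xylan, counts were 21.1, 18.8 and 95.0 on maltose, 3171, 8389 and 2030 on pine and 2095, 2508 and 5139 on aspen. The conditions on wood overlapped and maltose replicate 3 was again the highest maltose library. Its ratios of 82.6-fold on pine and 59.2-fold on aspen became 152-fold and 109-fold without maltose replicate 3, and the pine ratio became 47.5-fold without pine replicate 2. The CE16 gene 1367487, of an acetyl esterase family, was the least abundant CAZyme member, with 17.8, 4.17 and 13.9 on maltose, 1121, 598 and 203 on pine and 1039, 1014 and 1343 on aspen. Pine replicate 3 lay below all other wood libraries, and the means gave 29.7-fold on pine and 52.1-fold on aspen. Without pine replicate 1 the pine ratio of 1367487 was 18.7-fold and its pine to aspen ratio 0.359, outside the window of the set.

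Other CAZyme members, which carry no CBM1, belong to families GH79, GH35, GH51 and GH28. The GH79 gene 1435894, of a family with β-glucuronidases, was the most abundant CAZyme of the set, with 1637, 2097 and 1821 on maltose, 62068, 57510 and 47501 on pine and 50066, 46672 and 53258 on aspen. All 6 wood libraries of 1435894 lay within a narrow band, at least 22.2-fold above maltose, and the means gave 29.9-fold on pine and 26.9-fold on aspen. For the GH35 gene 1439531, of the β-galactosidases, counts were 661, 718 and 705 on maltose, 18612, 30703 and 17735 on pine and 12408, 14705 and 17132 on aspen. Every pine library of 1439531 lay above every aspen library, although the pine to aspen ratio was only 1.52.

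The GH51 gene 1357629 encodes a member of the α-arabinofuranosidase family, which removes arabinose from xylan and pectin. Its libraries held 366, 358 and 452 on maltose, 14062, 19582 and 6022 on pine and 12289, 11181 and 13911 on aspen. Pine replicate 3 was lowest and the woods overlapped, with 32.9-fold on pine and 31.0-fold on aspen. The only pectin-backbone enzyme among the members was the GH28 gene 1377553, of the polygalacturonases, with 125, 128 and 222 on maltose, 4589, 3946 and 941 on pine and 3736, 2878 and 4075 on aspen. Its ratios were 18.8-fold and 21.2-fold, and its pine replicate 3 was only 4.10-fold above the highest maltose library.

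The remaining CAZyme members belong to families best known for substrates other than plant cell walls. Gene 1453868 is of GH92, the α-mannosidases that trim glycans of glycoproteins, and had 325, 375 and 567 on maltose, 16360, 10160 and 9792 on pine and 17523, 21705 and 20382 on aspen. Its aspen libraries all lay above its pine libraries, with a pine to aspen ratio of 0.609. Gene 1471070 is the only GH25 gene, a family of lysozymes that cut bacterial cell walls, with 332, 277 and 391 on maltose, 12176, 9668 and 6327 on pine and 17355, 9246 and 14026 on aspen. The means of 1471070 gave 27.4-fold on pine and 39.4-fold on aspen and the woods overlapped. Gene 1377179 is of GH55, the β-1,3-glucanases whose substrate occurs in fungal cell walls, with 331, 392 and 628 on maltose, 14201, 12802 and 2461 on pine and 7305, 9901 and 13445 on aspen. Its pine replicate 3 lay 3.88-fold above the highest maltose library, while the other wood libraries were well clear of it.

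Over the whole annotation lists, tested with edgeR's quasi-likelihood test on raw counts at a Benjamini-Hochberg adjusted p under 0.05, the background was 29.1% of 11130 genes higher and 28.8% lower on pine than on maltose, and 26.3% higher and 24.9% lower on aspen. Of 277 CAZymes tested, 194 rose and 33 fell on pine, and 198 rose and 46 fell on aspen. Their median log2 fold change was 1.58 and 1.47, beside −0.03 and −0.02 over all genes. Of 38 cellulose-active genes, 35 rose on pine and 35 on aspen (median log2 fold change 3.28 and 4.45), and 3 of them are members. Of 37 hemicellulose-active genes, 31 rose on pine and 32 on aspen (3.25 and 4.76), and 5 are members. Pectin-active genes rose in 18 of 20 on each wood (3.96 and 3.77), with 1 member. Of the 22 CBM1-bearing genes, 20 rose on pine and 22 on aspen (4.05 and 5.63), and 6 are members. The groups by substrate and by CBM1 were made for this description from the family names in the study's table of CAZyme transcripts, which was drawn from the same transcriptomes, and the members are counted in them. Genes that the rule leaves out are counted as well. They number 18 among the CAZymes, 6 cellulose-active, 4 hemicellulose-active, 3 pectin-active and 3 CBM1-bearing.

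Some genes of the same families outside the set differed between the woods and others did not. Those given here were chosen after their values were seen, and the GH92, CE16 and GH55 genes outside the set are not given. The rule itself sets aside genes that differ 2-fold or more between the woods. A contrast with the members was thus largely fixed by the choice, and each p-value describes its own gene only. Of the 6 GH10 genes, all rose on pine and 5 on aspen. The GH10 genes outside the set included 1395316, with a log2 fold change of 1.71 (SE 0.27) on pine and 8.34 (SE 0.32) on aspen, and 1426850, with 3.20 (SE 0.37) and 6.65 (SE 0.43). Both were lower on pine than on aspen by edgeR's test (adjusted p = 5.33e-08 and 7.50e-05). Gene 1419320 gave 4.16 (SE 0.42) on pine and 6.29 (SE 0.46) on aspen, and 1362920 gave 1.06 (SE 0.35) and 0.84 (SE 0.34). Of the 3 CE1 genes, the other 2 were also lower on pine than on aspen, by 5.46 (SE 0.28) on the log2 scale for 1377160 (adjusted p = 1.54e-07) and by 3.32 (SE 0.43) for 1392142 (adjusted p = 0.000289). In GH5_5, gene 1434718 was lower on pine by 3.65 (SE 0.53, adjusted p = 0.000547), and gene 1429791 by 1.23 (SE 0.62, adjusted p = 0.15). In GH131 the other genes gave a log2 fold change of 1.35 (SE 0.66, adjusted p = 0.0988) on pine and 4.24 (SE 0.66, adjusted p = 0.00016) on aspen for 1376091, and of 0.15 (SE 0.37, adjusted p = 0.752) and −1.06 (SE 0.38, adjusted p = 0.0306) for 1464770.

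In other families, some genes outside the set were higher on pine, and the same limits of choice apply to them. Of the 4 other GH79 genes, edgeR's test called 1413725 higher on pine than on aspen, by 1.86 (SE 0.45) on the log2 scale (adjusted p = 0.00919), and 1447349, by 1.39 (SE 0.23, adjusted p = 0.00127). The remaining GH79 genes, 1468712 and 1374205, gave 0.84 (SE 0.39, adjusted p = 0.121) and 0.31 (SE 0.18, adjusted p = 0.214). The GH35 gene 1439507 was higher on pine by 1.40 (SE 0.49, adjusted p = 0.0447), while the GH51 gene 1462467 gave 0.66 (SE 0.37, adjusted p = 0.2). The GH28 gene 688728 was higher on pine by 1.30 (SE 0.44, adjusted p = 0.0404). Of the other GH28 genes outside the set, 1446047 had a log2 fold change over maltose of 3.32 on pine and 4.05 on aspen. For 1370654, 1418820, 1439310 and 1469372 the pine values were 5.62, 2.67, 4.91 and 2.94, and the aspen values 5.24, 2.51, 4.64 and 2.84.

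Members outside the CAZymes include 2 P450 genes, out of 61 listed in the study's P450 table, which does not hold every P450 gene of the strain and was drawn up on these samples. Of the 61, 34 rose and 19 fell on pine, and 36 rose and 21 fell on aspen. Gene 1468151, annotated with the CYP4/CYP19/CYP26 group of eukaryotic P450s, had 745, 644 and 678 on maltose, 27023, 18866 and 23641 on pine and 16460, 17614 and 17455 on aspen. Its pine libraries all lay above its aspen libraries, and the means gave 33.2-fold on pine and 24.6-fold on aspen. Gene 1471371, annotated with the CYP2 group, had 439, 220.1 and 395 on maltose, 10029, 8865 and 2055 on pine and 11505, 6580 and 10168 on aspen. Pine replicate 3 lay well below the other wood libraries of 1471371, and the means gave 19.3-fold and 26.1-fold.

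The most abundant member encodes a protein of unknown function with a signal peptide. Gene 1477226 had 7248, 8537 and 4745 on maltose, 424222, 362974 and 280110 on pine and 235850, 221060 and 224902 on aspen. All pine libraries of 1477226 lay above all aspen libraries, and both woods were far above maltose, at 51.9-fold and 33.2-fold. It ranked 8 among all genes by mean normalized count on wood and 880 on maltose. Per kilobase of gene span it also led the set, at 330521 normalized counts over both woods against 71191 for the next, 1442373.

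Proteins of unknown function with a signal peptide also held the widest ratio on pine. Gene 271638 had 8.90, 2.09 and 5.94 on maltose, 2334, 2515 and 4974 on pine and 3774, 3441 and 2757 on aspen, and its lowest wood library lay 124-fold above its highest maltose library, the widest gap of the set. The means of 271638 gave 210.0-fold on pine and 213-fold on aspen. Its neighbour on the assembly, 1477222, also of unknown function with a signal peptide, stood at 853-fold on pine and 384-fold on aspen and was just outside the set by its pine to aspen ratio of 2.22. Maltose counts this low make a ratio depend on the added 10, so it understates the change.

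Gene 1364528, whose protein has a DUF1793 domain of unknown function and a signal peptide, had 75.6, 66.8 and 91.1 on maltose, 10339, 8460 and 3305 on pine and 9737, 9635 and 9715 on aspen. Its 3 aspen libraries differed by 1.01-fold, the least of any member (1122612 and 1467785 followed, at 1.03-fold and 1.06-fold), while its pine replicate 3 was well below the other pine libraries. The means gave 84.0-fold on pine and 111-fold on aspen. Gene 701883 had 36.7, 37.5 and 64.3 on maltose, 1410, 3894 and 8315 on pine and 7645, 9638 and 6054 on aspen, with 81.0-fold and 139-fold. Its pine libraries were spread 5.90-fold with replicate 3 the highest, and without that culture the pine ratio was 47.4-fold and the pine to aspen ratio 0.342, outside the window of the set. The next gene, 702193, which is in no table, had 2.22, 7.30 and 8.91 on maltose, 108, 216 and 561 on pine and 406, 831 and 283 on aspen and the same order of the pine libraries and of the aspen libraries. The gene models lie 1 bp apart, so the reads of 701883 and 702193 may not be fully separate. Without pine replicate 3 the pine ratio of 702193 was 10.7-fold, under the limit of the set.

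The other 5 of the 9 genes of unknown function with a signal peptide ranged from 20.0-fold (1469536) to 50.5-fold (1443603) on pine. Among them 1413494 was the nearest to the upper limit of the pine to aspen ratio, at 1.69, with 15.6, 14.6 and 9.90 on maltose, 489, 1031 and 1405 on pine and 339, 691 and 693 on aspen. Its pine and aspen libraries overlapped in spite of that ratio. Of the 297 genes of this class tested, 162 rose and 66 fell on pine, and 157 rose and 65 fell on aspen (edgeR, median log2 fold change 0.98 and 0.85). The share that rose was 54.5% on pine and 52.9% on aspen, against 29.1% and 26.3% of all genes tested.

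Among the 28 members of unknown function without a signal peptide, 1447350 had the highest ratio on aspen of the whole set. Its counts were 13.3, 2.09 and 17.8 on maltose, 1873, 3803 and 3730 on pine and 5252, 6401 and 5252 on aspen. The aspen libraries all lay above the pine libraries, and the means gave 149-fold on pine and 268-fold on aspen. Gene 1430411 came next in this class on both woods, at 103-fold and 105-fold, with 31.1, 15.6 and 24.7 on maltose, 4120, 3748 and 2547 on pine and 2996, 4328 and 3268 on aspen. Here pine and aspen overlapped, and their means were nearly equal, with a ratio of 0.983.

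Counts in the same class were highest for 1389582, with 309, 357 and 321 on maltose, 7835, 18142 and 21038 on pine and 31327, 35603 and 26034 on aspen. All aspen libraries lay above all pine libraries, and its pine to aspen ratio of 0.506 was the lowest of the set. Gene 378107, annotated as lactonase-like, had 87.8, 112 and 121 on maltose, 4617, 7720 and 3523 on pine and 5098, 4243 and 5125 on aspen. Its woods overlapped at 45.4-fold and 41.4-fold. Gene 1462030 had pine libraries within 1.07-fold of each other, the narrowest of any member, followed by 1.09-fold for 1440175 and 1.10-fold for 1376304, and its ratios were 37.5-fold and 33.7-fold. Of 1810 tested genes of this class, 889 rose and 502 fell on pine, and 954 rose and 484 fell on aspen (edgeR, median log2 fold change 0.65 and 0.76). The share that rose was 49.1% on pine and 52.7% on aspen, against 29.1% and 26.3% of all genes tested.

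Several low members of this class stood on few maltose reads. Gene 1460350 had 2.22, 0 and 19.8 on maltose, 842, 561 and 485 on pine and 426, 604 and 418 on aspen. Its maltose libraries included a count of 0, and without maltose replicate 3 its ratios of 36.9-fold and 28.4-fold became 57.5-fold and 44.3-fold. In all, 12 of the 82 had a mean raw count under 20 on maltose.

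The 29 members in none of the tables include several with the highest counts of the set, without regard to gene length. Gene 1429596 had 3220, 5799 and 5906 on maltose, 133526, 159855 and 108472 on pine and 70277, 115542 and 106085 on aspen, gave 26.9-fold on pine and 19.5-fold on aspen, and its protein was found in both wood secretomes. Gene 1442373 had 2850, 3612 and 2822 on maltose, 62312, 53796 and 70501 on pine and 115867, 120044 and 106711 on aspen. Here every aspen library lay above every pine library, at 20.0-fold on pine and 36.8-fold on aspen. Gene 1529644 had 1577, 1642 and 1944 on maltose, 48524, 49789 and 38391 on pine and 54730, 67884 and 69513 on aspen, again with all aspen libraries above all pine libraries. The files name no product for these 3 genes.

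Gene 1478766 followed, with 1751, 1910 and 2245 on maltose, 39809, 40456 and 45025 on pine and 61068, 62478 and 46480 on aspen and aspen above pine throughout. The next in this class were 1423919, at 35.1-fold on pine and 29.3-fold on aspen, and 1443081, at 35.5-fold and 23.3-fold, and in both the woods overlapped. The largest pine ratio without an annotation was that of 582532, with 118, 104 and 176 on maltose, 18328, 12534 and 7134 on pine and 8347, 14050 and 13337 on aspen. Its means gave 88.8-fold and 83.5-fold and its woods overlapped.

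One member in no table was barely separated from maltose in a single culture. Gene 1375723 had 64.5, 51.1 and 211 on maltose, 4896, 3101 and 213 on pine and 5512, 1911 and 4596 on aspen. Pine replicate 3 stood level with maltose replicate 3, while the other 5 wood libraries were far above it, and the pine libraries spread 23.0-fold, the widest of any member. Its ratio of 23.1-fold on pine and 33.8-fold on aspen became 40.5-fold and 59.2-fold without maltose replicate 3, and 14.0-fold on pine without pine replicate 1. Gene 1430912 showed a similar drop in pine replicate 3, with 11.1, 22.9 and 43.6 on maltose, 1534, 1656 and 181 on pine and 987, 634 and 1112 on aspen. Gene 632309 rested on another culture, since its pine ratio of 37.4-fold was 20.6-fold without pine replicate 2. In aspen the widest spread was that of 702193, at 2.94-fold, followed by 2.88-fold for 1375723 and 2.51-fold for 1379288.

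Protein data of the study, a measure the rule did not use, place 16 of the 82 products (19.5%) in the culture fluid, against 180 of all 11202 genes (1.61%). All 16 were found on wood, 12 of them on both woods, and 7 were also found on maltose. Of the 14 CAZyme members, 11 (78.6%) were found, against 34.5% of all CAZymes. Of the members of unknown function with a signal peptide 1 of 9 (11.1%) was found, against 10.7% of that class, and of those without one 1 of 28 (3.57%) against 0.330%. Among those in no table, 3 of 29 members (10.3%) were found, against 0.526%. The CAZymes found include the GH79, GH74, GH35, GH51 and GH25 proteins on every medium. The GH55, GH131 and GH5_5 proteins and the GH10 protein 1437837 were found on both woods and not on maltose, and the GH92 and CE1 proteins were found on aspen only. A call needs only 2 unique peptides, and some of these proteins were near that floor. A call on 1 medium and not on another is therefore no measured difference in amount.

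Outside the CAZymes, the DUF1793 protein 1364528 and the lactonase-like protein 378107 were found on all 3 media. The unannotated protein 1429596 was found on both woods, 1370768 on pine only and 1430912 on aspen only. Gene 1370768 had 160.1, 215 and 341 on maltose, 13647, 9235 and 13440 on pine and 9020, 11364 and 10498 on aspen, with the woods overlapping, so its detection on 1 wood did not go with a separation of its transcript counts between the woods. The 1 CBM1-bearing member whose protein was not found is the GH10 gene 1435885.

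Cultures of the same condition differed most in the CBM1-bearing members. In all 6, maltose replicate 3 was the highest maltose library, pine replicate 2 the highest and pine replicate 3 the lowest pine library, and in 5 of 6 aspen replicate 2 was the lowest aspen library. Against the mean of the other pine libraries, on the log2 scale of the normalized count plus 10, their median was −2.13 in pine replicate 3 and 1.99 in pine replicate 2. Pine replicate 3 was the lowest pine library in all 14 CAZyme members, in 46.8% of all 278 CAZymes and in 35.4% of the 10838 genes with a count above 0 in every library. In the members of unknown function without a signal peptide it was the lowest in 13 of 28, and aspen replicate 2 was the highest aspen library in 18 of 28. The 19 left-out genes, mostly CAZymes, had the same order, with pine replicate 3 lowest in 16, pine replicate 2 highest in 15 and maltose replicate 3 highest in 16.

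The coefficient of variation over 3 libraries was also the highest in the CBM1-bearing members among the classes of members, with a median of 54.0% on maltose, 82.3% on pine and 38.2% on aspen. Over the 19 left-out genes it was 60.1%, 68.4% and 23.9%. Over the 28 of unknown function without a signal peptide it was 26.8%, 26.0% and 18.0%, and over all 10838 genes 15.97%, 23.8% and 15.3%. Pine replicate 2 and aspen replicates 1 and 3 were the libraries whose reads the study trimmed to 78 bases rather than 70, and these are also the libraries in which most CBM1-bearing members were high. The part of read length in this was not tested, and maltose replicate 3 was trimmed to 70 bases like the other maltose libraries.

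Across the 82 genes, the position of pine replicate 3 among the pine libraries and that of aspen replicate 2 among the aspen libraries ran together, with Pearson's r = 0.72 over 82 genes. Over the 19 left-out genes r was 0.71, and over all 10838 genes 0.23. Within the members it was 0.84 over the 29 in no table and 0.08 over the 28 of unknown function without a signal peptide. Among the 29, 3 genes stood out in pine replicate 3 and aspen replicate 2. They were 1375723 (−4.13 and −1.39), 1430912 (−3.07 and −0.71) and 702193 (1.80 and 1.27), and r without them was not computed. These points share libraries and are genes, not replicates, so the values describe the spread only. The plot of library position shows the CBM1-bearing genes low in both cultures.

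**Figure D3:**
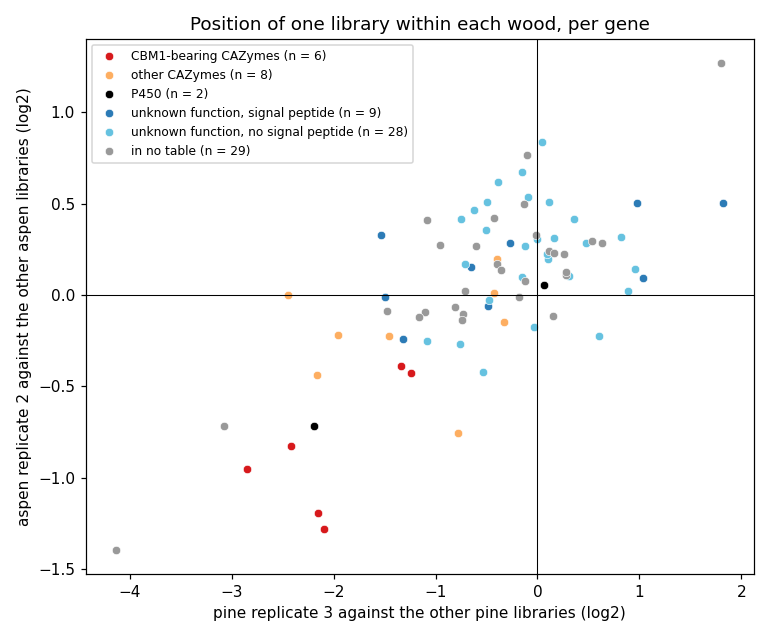
Each point is 1 of the 82 genes; the x axis is log2 of normalized count plus 10 in pine replicate 3 minus its mean over the other pine libraries, and the y axis is the same for aspen replicate 2. All 14 CAZyme members lie left of 0, the 6 with a CBM1 (red) lie low on both axes, and of the 28 of unknown function without a signal peptide (light blue), 12 lie right of 0 and 22 above 0.

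Although the rule keeps the woods within 2-fold, the woods were not equal for every member. The pine to aspen ratio ran from 0.506 to 1.88 with a median of 0.947, and 32 genes lay between 0.8 and 1.25. The mean was higher on aspen in 48 genes and on pine in 34. The pine and aspen libraries overlapped in 59 genes, all aspen libraries lay above all pine libraries in 15, and the reverse held in 8. Over all genes 24.3% had aspen above pine throughout and 20.8% pine above aspen, 45.1% together. Nothing is read from that contrast, since the rule limits it. Of the 15 with aspen above pine, 8 are in no table and 6 are of unknown function without a signal peptide, and the remaining one is the GH92 gene.

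Of the 82 genes, 57 stayed whichever library was left out. The other 25 were lost in at least 1 leave-out, some of them in more than 1. Most of these losses came from pine, with 11 genes lost without replicate 1, 10 without replicate 2 and 6 without replicate 3, against at most 3 for any maltose or aspen library. Among the genes described above, the GH28 gene 1377553 and the P450 gene 1471371 fell out without pine replicate 1, at 14.6-fold and 15.1-fold on pine, and 1413494 did so at a pine to aspen ratio of 2.10. Gene 1447350 fell out without pine replicate 2, at a pine to aspen ratio of 0.498. Gene 1389582 fell out without pine replicate 2, pine replicate 3 or aspen replicate 3, at 0.466, 0.419 and 0.468.

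Together the 82 genes took at most 0.113% of all counts in a maltose library, with a lowest share of 0.0818%. In the pine libraries they took between 2.13% and 2.92%, and in the aspen libraries between 2.87% and 3.09%. Gene 1477226 alone took between 0.622% and 1.02% of the counts in the pine libraries and between 0.615% and 0.651% in the aspen libraries. No member was among the 500 genes with the highest counts on maltose, and 15 were on wood. Fewer cells expressing a gene and less RNA per cell cannot be told apart in such bulk samples.

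**Figure D4:**
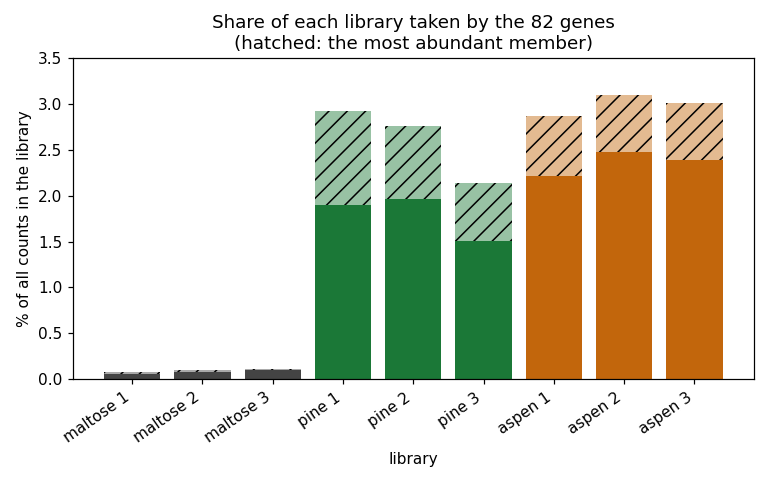
Share of all raw counts taken by the 82 genes in each library, in percent, with the most abundant member 1477226 hatched and the other 81 genes solid. The maltose bars stay at or under 0.113%, and the wood bars stand between 2.13% and 3.09%, with pine replicate 3 the lowest of the wood libraries.

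Gene order, which the rule did not use, was available for 80 of the 82 in assembly Pycco1. Of these, 6 (7.50%) lay within 3 genes of another member, as 701883 and 702193, 1402619 and 582532, and 1462030 and 1462033, against 3.94% of all genes that lie as near to a member. Of 153 genes next to a member, 23 (15.0%) were at least 4-fold higher on both woods, against 5.51% of all genes, and 5 (3.27%) at least 16-fold, against 1.26%. The 5 include the members 701883 and 702193 themselves. Without members the counts were 21 of 151 (13.9%) and 3 (1.99%), and without the left-out genes as well 19 of 149 (12.8%) and 1 (0.671%). The neighbours include the GH28 gene 1370654 beside 1370768 and the GH51 gene 1462467 beside 1441122, both among the genes that the rule leaves out. The CBM1-bearing CE1 gene 1377173 lies beside 1377160, the CE1 gene with 5.14-fold on pine and 214-fold on aspen. Without strand or read positions in the files, reads shared between neighbours cannot be separated.

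The limits of the rule fall among genes with like values, given here without the 19 listed genes, of which the GH12 gene 1358049 lay at a pine to aspen ratio of 2.06. On pine the members nearest to 16-fold were 1466667 (16.3), 423978 (16.5) and 1431190 (17.4), and the nearest genes outside were 1368062 (15.4), 4193 (15.3) and 1468122 (14.9). On aspen the nearest members were 1452045 (16.8), 1427973 (17.0) and 1441122 (17.4), and outside were 1299593 (15.9), the PL8 gene 1444442 (15.7) and 1026821 (15.5). At the lower limit of pine to aspen, 1389582 (0.506), 1373359 (0.515) and 1442373 (0.545) are inside, and the AA8-AA3_1 gene 1401955 (0.485), 1438837 (0.473) and the GH5_5 gene 1429791 (0.434) are outside. At the upper limit, 1427973 (1.88), 1413494 (1.69) and 1448251 (1.67) are inside, and the GH32 gene 718112 (2.02), 270010 (2.10) and 1477222 (2.22) are outside.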

How the data were processed

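Whole-number counts of reads per gene were made by the authors with TopHat2 and HTSeq from paired poly A reads mapped to the genome of the same strain, and are deposited for 12690 genes. The deposited normalized counts, a signal the authors made with DESeq by multiplying the counts of a library by 1 constant, cover 11202 genes. The submitters' processing notes give DESeq version 1.5. No column of another series was present. Between 59.1% and 70.7% of the raw counts of a library were even numbers, which goes with both reads of a pair being counted.

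Members were chosen with Python 3.11.15 and pandas 2.3.3 on the normalized counts, with 10 added to each mean. The members and lists were chosen with earlier results of these data known, so no p-value is given for a member. For background and whole annotation lists, raw counts of 11130 genes with a mean of at least 5 were fitted with edgeR 4.0.16 in R 4.3.3 (TMM, 1 quasi-likelihood model with 3 groups, Benjamini-Hochberg adjustment over all genes), after a test on simulated data. SE is the log2 fold change over the square root of F. P-values measure the spread between cultures only. Classes are those of the study's tables, substrate groups were made from their family names, "in no table" means in none of them, and secretome calls need 2 unique peptides. Gene IDs matched assembly Pycco1 for 12680 genes, used for order and gene span only. Lists that need product names were not made, since the tables used here hold none. Cell-type markers do not apply to these cultures.

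Genes named are all members among CAZymes, P450s or secretome proteins, the 10 with the highest counts on wood, the 5 largest ratios on each wood, the 3 on each side of each limit, the 3 widest and narrowest spreads, and neighbouring members. Genes 1460350 and 632309, and the genes outside the set that share a family with or adjoin a member, were chosen after their values were seen. Alternatives were other offsets, folds and windows, TMM or DESeq2 size factors, the median, a replicate block, trim length as a term, no filter, the Wald test of DESeq2 1.42.0 and each library left out.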

Additional observations from a re-analysis of the deposited data

How the results depend on the processing

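The set of 82 depended most on the numbers in its rule. An added count of 100 in place of 10 left 38 genes (37 of them members) and 1 gave 109 (all 82 among them), a ratio of 8 gave 184, a ratio of 32 gave 26, and a pine to aspen window of 0.67 to 1.5 gave 52. Scaling moved it little, with 81 genes by TMM (80 shared) and 82 by DESeq2 size factors (82 shared), and medians in place of means gave 90 (75 shared). Leaving out 1 library gave 78 to 91 genes, and 57 members stayed whichever library was left out. Genes higher on pine than on maltose numbered 3235 (2795 to 3266 with 1 library left out), genes higher on aspen 2925 (2447 to 3035), and genes differing between pine and aspen 3369, which fell to 2241 without pine replicate 2 and 2183 without aspen replicate 1 (range 2183 to 4181). Trim length as a term gave 3050, 2391 and 2893, and the Wald test of DESeq2 3460, 3012 and 3863. The cause of these differences was not tested. Correlations of same-numbered libraries, taken within conditions, ran from −0.05 to 0.31. Differently numbered libraries were not compared, so these values do not settle whether the cultures were paired by number. A replicate block gave 3323, 3065 and 3792 genes. Members with few maltose reads are limited by depth, since 12 had a mean raw count under 20.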
